A study of Mus musculus with 18 samples.

Results

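The adult hemoglobin genes Hba-a1, Hba-a2, Hbb-bs and Hbb-bt and the erythroid heme enzyme gene Alas2 were followed through RNA sequencing of quadriceps myofibers from mice given prednisone, a synthetic glucocorticoid. The members are these 5 listed genes, found by mapping Ensembl identifiers to mouse symbols, out of 43430 genes in the count table. They were chosen with earlier results of these data known, among them a change of a blood list in daily females. All 5 passed the filter on low counts and were among 13596 genes tested. Adult C57BL/6J mice of each sex received vehicle (DMSO in PBS), once-weekly prednisone or daily prednisone by intraperitoneal injection for about a month, giving 6 groups of 3 libraries, or 18 in all. Mice on the weekly regimen were given vehicle on the other days. Because the myofiber fraction was what a strainer retained after collagenase digestion of the sliced muscle, other material of the muscle can come along, and the sources used here describe no perfusion.

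Hemoglobin carries oxygen in red blood cells as a tetramer of alpha and beta globin chains, each holding a heme. In adult C57BL/6 mice the alpha chains are encoded by Hba-a1 and Hba-a2 and the beta chains by Hbb-bs and Hbb-bt. Alas2 encodes the erythroid form of 5-aminolevulinate synthase, the enzyme that opens heme synthesis. These genes are transcribed in erythroid precursors of the marrow and spleen, and circulating red cells have no nucleus but their younger forms still carry globin messenger RNA. Skeletal muscle has its own oxygen-binding protein, myoglobin (Mb).

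In mm10 coordinates, Hba-a1 (ENSMUSG00000069919) lies at chr11:32283511-32284465 and Hba-a2 (ENSMUSG00000069917) at chr11:32296489-32297298, both on the plus strand. Hbb-bs (ENSMUSG00000052305) lies at chr7:103826534-103828096 and Hbb-bt (ENSMUSG00000073940) at chr7:103812524-103813996, both on the minus strand. Alas2 (ENSMUSG00000025270) lies at chrX:150547375-150570638 on the plus strand. All are protein-coding genes, and counts cover their exons.

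Each globin gene has a near-identical partner, and this limits how reads could be divided between copies. The coding sequences of Hba-a1 and Hba-a2 in GENCODE release M21 differ at 1 of 429 bases, and those of Hbb-bs and Hbb-bt at 1 of 444. The stretches that hold the difference are shown for coding positions 322 to 381 of the alpha genes and 358 to 417 of the beta genes, counted from the first base of the start codon, with the differing base in capitals.
Hba-a1: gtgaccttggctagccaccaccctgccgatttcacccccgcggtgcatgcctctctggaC
Hba-a2: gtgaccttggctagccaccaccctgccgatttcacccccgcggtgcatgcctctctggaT
Hbb-bs: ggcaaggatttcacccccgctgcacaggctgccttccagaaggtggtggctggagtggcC
Hbb-bt: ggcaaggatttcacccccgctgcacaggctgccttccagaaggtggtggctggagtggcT
Of all 50-base windows of the main transcript, 67.5% for Hba-a1, 86.9% for Hba-a2, 65.8% for Hbb-bs and 58.3% for Hbb-bt also occur in the transcript of the partner gene, while no window of Alas2 occurs in another gene. How reads that fit both copies were counted is not given in the sources used here. Levels of single globin genes are therefore uncertain as a division between copies, and sums of the alpha pair and of the beta pair are given beside them. If reads that fit both copies were left out, these sums, their ratio and the levels per kilobase would be affected too. Alas2 has another limit, since 311 of its 2403 exon bases overlap exons of Apex2 on the opposite strand. The strand setting of the counting is not given, and Apex2 itself held between 35 and 105 counts per library.

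The sequence just before the start of transcription is shown as a description of the 5 genes, and its part in the levels measured here was not tested. These are the last 130 bases before the RefSeq start (GRCm38.p6, written 5′ to 3′ on the gene's strand), with each match on either strand to GATAA (the core that GATA factors recognise), CACCC (the core of KLF factor sites), CCAAT (the CCAAT box) or TATAA (the TATA box core) in capitals. The windows are chr11:32296362-32296491 (plus) for Hba-a2, chr7:103827929-103828058 (minus) for Hbb-bs, chr7:103813924-103814053 (minus) for Hbb-bt and chrX:150547287-150547416 (plus) for Alas2.
Hba-a2: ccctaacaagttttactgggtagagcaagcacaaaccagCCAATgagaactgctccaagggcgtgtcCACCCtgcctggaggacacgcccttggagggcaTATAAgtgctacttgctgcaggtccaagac
Hbb-bs: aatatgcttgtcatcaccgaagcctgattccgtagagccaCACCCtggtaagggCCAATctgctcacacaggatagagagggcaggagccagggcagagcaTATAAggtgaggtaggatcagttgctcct
Hbb-bt: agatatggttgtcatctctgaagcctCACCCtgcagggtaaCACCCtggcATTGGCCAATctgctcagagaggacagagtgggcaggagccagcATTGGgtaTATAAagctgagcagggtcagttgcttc
Alas2: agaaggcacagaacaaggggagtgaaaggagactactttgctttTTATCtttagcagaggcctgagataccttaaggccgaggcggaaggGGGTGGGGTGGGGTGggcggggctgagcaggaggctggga
Over 247 aligned bases the Hba-a1 and Hba-a2 promoters were equal base for base, so Hba-a1 is not printed again, and the Hbb-bs and Hbb-bt promoters matched at 51.0% of 249 bases without gaps. Within 250 bases before the start, both GATAA and the motif CACCC occurred in all 5 genes. The GATAA matches of the 4 globin genes lay 178 to 209 bases before the start, outside the printed stretches. Of 32851 mouse promoters in the same RefSeq table, 22.6% held GATAA and 52.0% held CACCC in this window. CCAAT occurred in the 4 globin genes and in 33.8% of all promoters, and TATAA in all 5 genes and in 22.8% of promoters. The nearest TATAA lay within 23 to 30 bases before the start in the 4 globin genes. In Alas2 the matches lay 203 to 208 bases before it, outside the printed stretch. ACANNNTGT, the glucocorticoid receptor core searched here, was found in none of the 5 windows and in 5.84% of promoters. The GENCODE spans of all 5 genes begin farther upstream than the RefSeq starts, so the distance to the start depends on the annotation.

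Counts of the members were modest but present in every library. Raw counts ranged from 202 to 581 for Hba-a1, from 127 to 353 for Hba-a2, from 418 to 1119 for Hbb-bs, from 69 to 198 for Hbb-bt and from 26 to 97 for Alas2, in libraries of 10506661 to 14686654 counts. Levels are given in CPM, a gene's counts per 1000000 counts of its library, with library totals adjusted by TMM factors (a scaling that sets the typical gene equal between libraries). Per kilobase of the main GENCODE transcript, the median level over 18 libraries was 105 CPM for Hbb-bs, 47.1 for Hba-a1, 39.6 for Hba-a2, 16.2 for Hbb-bt and 1.79 for Alas2. Myoglobin, on the same scale, had a median of 1050.3 and ranged from 279 to 4130. By mean CPM, Hbb-bs ranked 1712 among the 13596 tested genes and Alas2 ranked 9910. No 2 libraries of a group agreed within sampling noise, so each was counted as its own sample.

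The genes that mark red cell precursors most narrowly were all but absent from these libraries. A list of 38 further erythroid genes had 37 members in the table, of which 20 passed the count filter and 17 did not. Those that passed include genes that other tissues also use, such as Ank1 and Sptb of the membrane skeleton. The 17 others, which hold many of the red cell's own surface proteins and regulators, together reached 149 counts over all 18 libraries, against 28920 counts for the 5 genes. Slc4a1, the band 3 anion exchanger, had 8 counts in all, Epb42 (protein 4.2) had 2, and Klf1, the erythroid transcription factor that acts on the beta globin locus, had 11. Gata1, Hemgn, Trim58 and Tspo2 had 0 of 221541435 counts, which allows up to 0.0135 CPM for each (raw counts, 3 counts as the limit, counting error only). Ahsp, the chaperone of alpha globin, was not matched in the table. Defining markers of nucleated red cell precursors were thus at or near 0, and the label of red cell genes rests here on the globins and Alas2. Embryonic globins were not detected at this depth, since Hbb-bh1, Hbb-bh2, Hbb-y and Hba-x had 0 counts. Among other globins below the filter, Hbq1a had 3 counts, Hbq1b had 1 and Ngb (neuroglobin) had 26 over the 18 libraries.

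**Figure D1:**
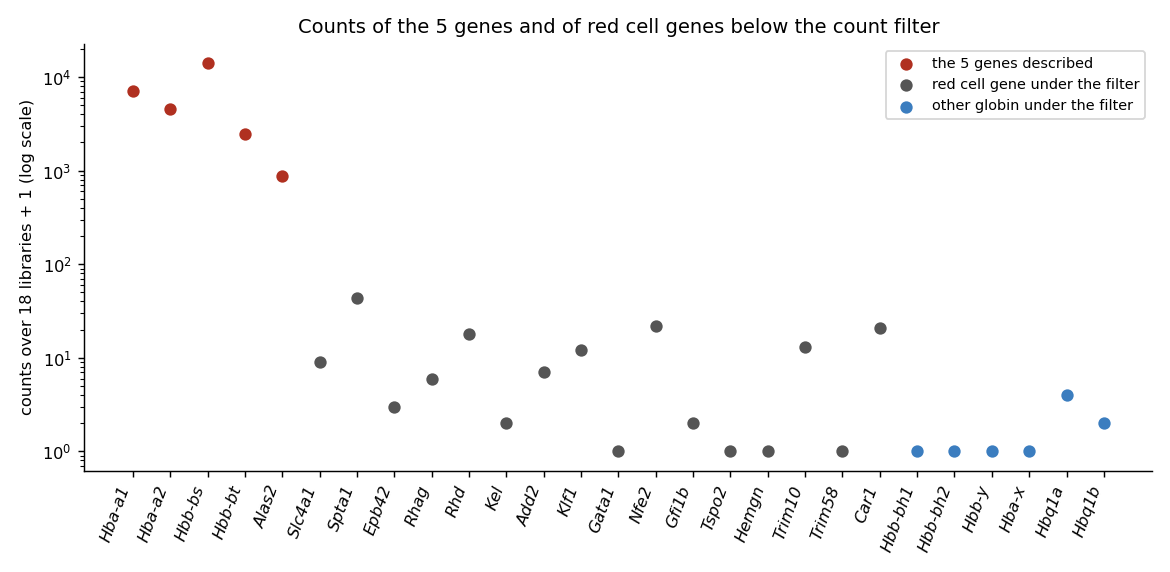
Summed raw counts over 18 libraries, plus 1 and on a log axis, for the 5 genes (red), for 16 of the 17 erythroid genes below the count filter (grey) and for 6 other globin genes below it (blue). The 5 genes hold 868 to 13997 counts each, and no grey or blue gene exceeds 43.

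Mean globin levels were lowest on daily prednisone in each sex and highest on weekly prednisone in males. The summed level of the 4 globins was 167 ± 21.9 CPM (SD, n = 3) in males on weekly prednisone, 146 ± 22.9 in females on weekly prednisone, 144 ± 27.6 in vehicle males, 134 ± 38.9 in vehicle females, 108 ± 8.95 in males on daily prednisone and 73.4 ± 10.1 in females on daily prednisone. In this order each of the first 4 steps was smaller than the larger of the 2 SDs. The last step was larger than the spread, as the males on daily prednisone lay between 102 and 118 CPM and the females on daily prednisone between 66.0 and 84.9. For all 5 genes the highest library was male weekly replicate 1, and the lowest was female daily replicate 1 or 3. The highest library held 2.97 times the level of the lowest for Hba-a1, 3.16 times for Hba-a2, 2.85 times for Hbb-bs, 3.38 times for Hbb-bt and 4.71 times for Alas2.

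**Figure D2:**
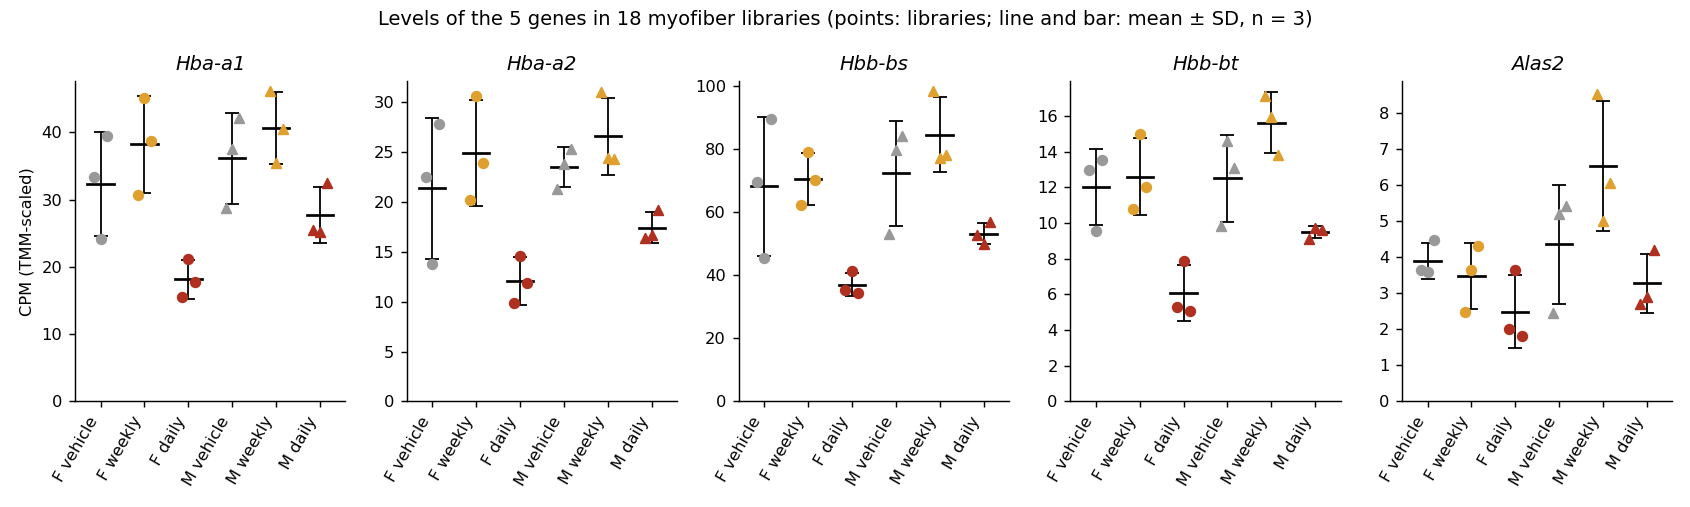
Level of each gene in CPM (vertical axis, from 0) in the 6 groups (F, female; M, male), with a point for each library and a line and bar for the mean and SD of 3. In each panel the daily groups have the lowest mean of their sex, and the upper point of the male weekly group is the highest of the 18.

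Daily prednisone was compared with vehicle, the comparison that asks what steady exposure did to the muscle, and all 5 genes had negative log2 fold changes in both sexes. In the mean of both sexes, 4 of the 5 genes, all of them globins, fell past the test. This was read beside 7.47% of all tested genes that passed it with a lower level. As the members were chosen with a blood list change in daily females known, setting them beside that share is no independent test. Hbb-bt fell by 0.69 ± 0.14 on the log2 scale (SE, edgeR adjusted p = 0.00460), Hbb-bs fell by 0.66 ± 0.15 (adjusted p = 0.00768), Hba-a2 fell by 0.63 ± 0.16 (adjusted p = 0.0130) and Hba-a1 fell by 0.61 ± 0.14 (adjusted p = 0.00954). On a linear scale these are 0.619, 0.632, 0.647 and 0.656 times the vehicle level. Alas2 did not pass, at -0.53 ± 0.24 (adjusted p = 0.152). The median of all tested genes was 0.02. With each pair of copies summed before the fit, the alpha pair fell by 0.61 (adjusted p = 0.00979) and the beta pair fell by 0.67 (adjusted p = 0.00621). Over the alternatives tried, the adjusted p of the 4 globins ranged from 0.000177 to 0.0839. The count of 4 was the same with each of the 12 vehicle and daily libraries left out in turn. The 4 globins varied together and copies share reads, so their calls are not independent of each other. It became 2 without TMM factors (3486 genes called), where the median of all genes moved to 0.25.

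A permutation of treatment labels within each sex, which uses no count model, gave the same order. The exact two-sided p was 0.005 for Hbb-bt, which is the smallest these 400 relabellings can give, 0.01 for each of the other 3 globins and 0.065 for Alas2. Over the 10 such tests run (5 genes and both regimens) the p values for weekly prednisone lay between 0.19 and 0.46.

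In females, Hbb-bs read 69.6, 45.4 and 89.6 CPM in the vehicle libraries and 35.4, 41.3 and 34.5 on daily prednisone. Hba-a1 read 33.4, 24.1 and 39.5 CPM with vehicle and 15.5, 21.2 and 17.8 on daily prednisone. For both genes all daily libraries lay below all vehicle libraries, with vehicle replicate 2 the lowest of its group. Hbb-bt read 12.96, 9.56 and 13.5 CPM with vehicle against 5.30, 7.86 and 5.08 on daily prednisone, again without overlap. Hba-a2 read 22.5, 13.8 and 27.8 CPM with vehicle and 9.83, 14.6 and 11.8 on daily prednisone, and here daily replicate 2 lay above vehicle replicate 2. Alas2 read 3.64, 3.59 and 4.48 CPM with vehicle and 1.997, 3.65 and 1.81 on daily prednisone, so the groups overlapped through daily replicate 2. In all, 3 of the 5 genes lay wholly below vehicle, as did 10.2% of all tested genes.

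By the test within females, 1 of the 5 genes, Hbb-bt, passed, beside 0.25% of all tested genes that passed with a lower level. A blood list change in these daily females was known when the members were chosen, so this is no independent test. Its log2 fold change was -0.98 ± 0.20 (SE, adjusted p = 0.0474). The other globins had log2 fold changes of -0.88 ± 0.21 for Hbb-bs, -0.83 ± 0.20 for Hba-a1 and -0.82 ± 0.22 for Hba-a2, with adjusted p between 0.0708 and 0.0832, and Alas2 had -0.65 ± 0.34 (adjusted p = 0.350). The Hbb-bt call was lost with any 1 of the 6 vehicle or daily female libraries left out (adjusted p between 0.0587 and 0.206), with limma-voom (0.0533), without TMM factors (0.0568), with scaling that left out mitochondrial genes and the members (0.0639) and with each copy pair summed (beta pair 0.0639). DESeq2 called all 4 globins (adjusted p between 0.00164 and 0.0206), among 526 of 13596 genes called in either direction. Over all alternatives the adjusted p of Hbb-bt lay between 0.00164 and 0.206.

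In males the log2 fold changes lay closer to 0 and no gene passed. Hbb-bs read 53.2, 79.7 and 84.1 CPM with vehicle and 52.8, 50.05 and 56.8 on daily prednisone. Hba-a1 read 28.7, 37.6 and 42.1 CPM with vehicle and 25.5, 25.1 and 32.5 on daily prednisone. Both genes overlapped, since vehicle replicate 1 lay near the daily libraries. Hba-a2 read 21.3, 23.8 and 25.3 CPM with vehicle against 16.4, 16.7 and 19.2 on daily prednisone. Hbb-bt read 9.83, 14.6 and 13.1 CPM with vehicle against 9.11, 9.75 and 9.60, and these 2 genes lay wholly below vehicle, as did 17.1% of all tested genes. Alas2 read 2.46, 5.199 and 5.41 CPM with vehicle and 2.71, 2.89 and 4.21 on daily prednisone, with vehicle replicate 1 the lowest of the 6. The log2 fold changes lay between -0.44 and -0.38 for the 5 genes, with SE from 0.20 to 0.34 and adjusted p from 0.219 to 0.493. The count of 0 stands beside 6.46% of all genes called, no member was under an unadjusted p of 0.05 (22.8% of all genes were), and DESeq2 and limma-voom called none.

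The sexes were compared in their daily response by an interaction term. The female change was the more negative for all 5 genes, by 0.23 to 0.58 on the log2 scale, with SE from 0.28 to 0.48. No gene passed (adjusted p from 0.889 to 0.931, 0 of 5 at an unadjusted p under 0.05 against 4.69% of all genes, 0 by DESeq2 and by limma-voom), and 0% of all tested genes did. A difference between the sexes in this response was not shown. Between vehicle females and vehicle males the log2 differences lay between -0.16 and -0.05 and 0 of 5 genes passed, beside 0.765% of all tested genes (0 at an unadjusted p under 0.05 against 10.4% of all genes, 0 by DESeq2 and by limma-voom).

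**Figure D3:**
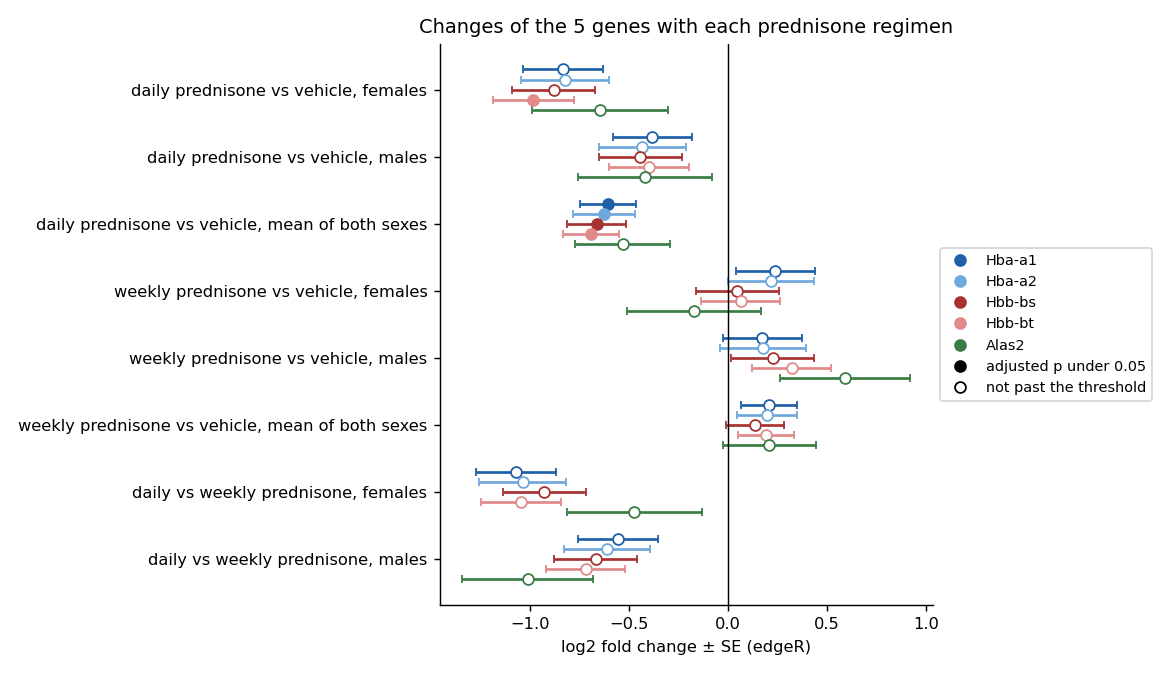
Log2 fold change with its SE (horizontal axis) for each gene in 8 comparisons, filled where the edgeR adjusted p was under 0.05. Filled points are the 4 globins in the mean of both sexes on daily prednisone and Hbb-bt in daily females, and every point of the daily comparisons lies left of 0.

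Weekly prednisone gave no call against vehicle in either sex. In females the weekly libraries read 62.4, 79.1 and 70.1 CPM for Hbb-bs, 30.8, 45.2 and 38.7 for Hba-a1, 20.2, 30.6 and 23.9 for Hba-a2, 10.8, 15.03 and 12.02 for Hbb-bt and 2.48, 3.64 and 4.32 for Alas2. In males they read 98.3, 77.3 and 78.0 CPM for Hbb-bs, 46.1, 35.5 and 40.5 for Hba-a1, 31.1, 24.4 and 24.3 for Hba-a2, 17.2, 15.95 and 13.8 for Hbb-bt and 8.53, 4.996 and 6.06 for Alas2. All 5 genes overlapped the vehicle range in each sex. The log2 fold changes were between -0.17 and 0.24 in females and between 0.17 and 0.59 in males, the largest being that of Alas2 in males (0.59 ± 0.33, adjusted p = 0.849). With 0 of 5 genes called in each sex, 0% of all tested genes were called too, 0 members were under an unadjusted p of 0.05 (of all genes 7.97% in females and 5.71% in males were), and DESeq2 and limma-voom called none of the 5. In females the sign for Hba-a2, Hbb-bs, Hbb-bt and Alas2 turned with 1 library left out, so these small values carry no direction.

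The regimens were also compared with each other, using the same daily libraries as above. In females the log2 fold change of daily against weekly prednisone was -1.07 ± 0.20 for Hba-a1, -1.05 ± 0.20 for Hbb-bt, -1.04 ± 0.22 for Hba-a2, -0.93 ± 0.21 for Hbb-bs and -0.47 ± 0.34 for Alas2. The 4 globins lay wholly below weekly in the daily females, as did 7.34% of all tested genes, and Alas2 overlapped. None passed the test (adjusted p of the globins from 0.0518 to 0.0711, of Alas2 0.4998, 4 of 5 at an unadjusted p under 0.05 against 17.7% of all genes), and 0% of all tested genes did. Female libraries that carry the same title number in these groups moved together. The column headers carry other numbers, and neither titles nor headers name a batch or pairing. With the title number as a replicate block for them in the fit of all 18 libraries, 4 of the 5 genes passed. These were the globins (adjusted p from 0.0204 to 0.0315), among 522 genes called, and the other groups share the spread estimate of that fit. The same block in a fit of the 6 libraries alone passed none of the 5 (adjusted p of the globins from 0.0820 to 0.114). DESeq2 likewise called 4, among 512 genes called, and limma-voom called 0. Without female weekly replicate 1 the test called 4 (adjusted p from 0.0254 to 0.0403), among 312 of 13821 genes called. Over the alternatives the adjusted p of the globins ranged from 0.000469 to 0.528. In males the log2 fold changes were -1.01 ± 0.33 for Alas2, -0.72 ± 0.20 for Hbb-bt, -0.67 ± 0.21 for Hbb-bs, -0.61 ± 0.22 for Hba-a2 and -0.56 ± 0.20 for Hba-a1. All 5 genes lay wholly below weekly in the daily males, as did 12.7% of all tested genes. None passed (adjusted p from 0.166 to 0.239), and 0% of all tested genes did. At an unadjusted p under 0.05 stood 5 of 5, against 13.5% of all genes. DESeq2 called 1 of the 5, among 204 genes called, and limma-voom called 0.

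The proportions between the genes stayed nearly fixed while their level moved. Hba-a1 took between 57.4% and 63.6% of the alpha counts of a library (60.6% ± 1.62, SD, n = 18), and Hbb-bs took between 82.6% and 87.2% of the beta counts (85.0% ± 1.33). These shares divide reads between near-identical copies and are uncertain as such. The ratio of beta to alpha counts does not depend on that division or on scaling. Its absolute value would still shift if reads that fit both copies were left out, as the pairs share different parts of their sequence. It was 1.43 ± 0.106 over 18 libraries, from 1.24 to 1.61. By group it lay between 1.33 ± 0.0991 in weekly females and 1.49 ± 0.0707 in weekly males. Female daily, with a summed globin level of 73.4 CPM, had a ratio of 1.44 ± 0.146, and female vehicle, with 134 CPM, had 1.49 ± 0.0422. Alas2 was looser, at 3.09 ± 0.715 counts per 100 globin counts, from 1.998 in a weekly female library to 4.43 in a weekly male library.

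The members also varied together from mouse to mouse. Over 18 libraries the log2 CPM of the 6 globin pairs correlated with Pearson r between 0.939 and 0.978 and Spearman rho between 0.901 and 0.967 (permutation p adjusted over 10 pairs 1.67e-05, the smallest these draws can give). Copy pairs share reads, and the 4 pairs of an alpha with a beta gene, which share no 50-base window, had r between 0.939 and 0.968. The 4 pairs of Alas2 with a globin had r between 0.745 and 0.823 and rho between 0.746 and 0.810 (adjusted permutation p at most 0.00063). Without the 2 libraries farthest from the median, r was between 0.895 and 0.957 for globin pairs and between 0.584 and 0.709 for Alas2. With group means removed, r was between 0.792 and 0.922 for globin pairs and between 0.597 and 0.798 for Alas2 (adjusted permutation p at most 0.0109).

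**Figure D4:**
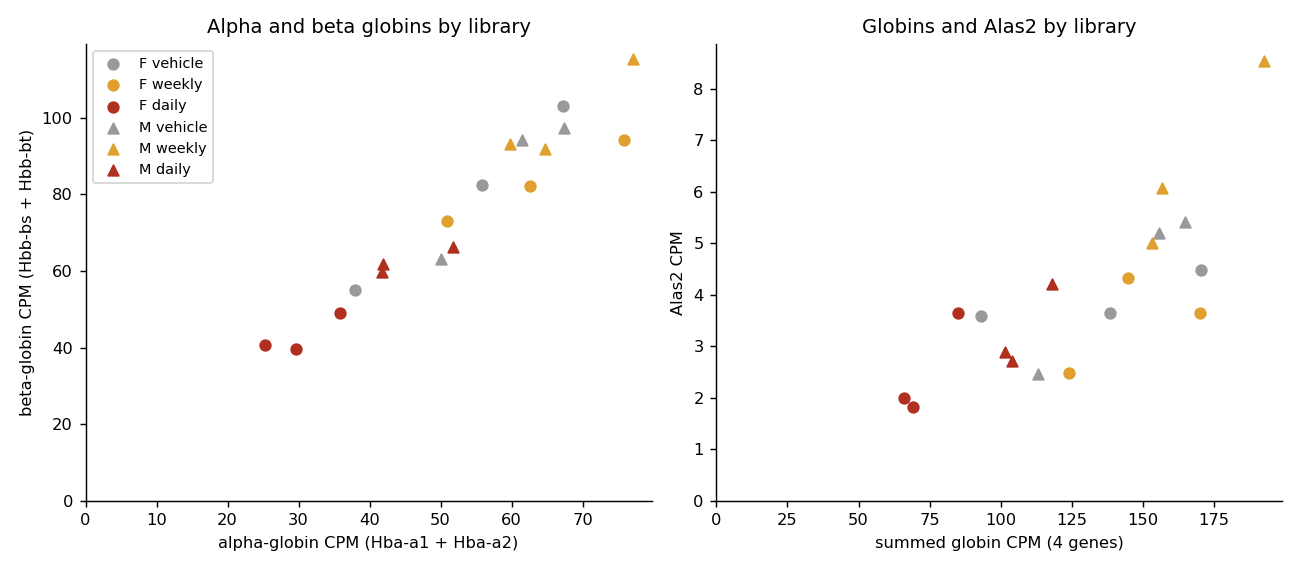
Left, summed beta globin against summed alpha globin in CPM, a point per library. Right, Alas2 against the sum of the 4 globins. The left points follow a narrow band from the daily females near 25 CPM of alpha globin to male weekly replicate 1 at the top, and the right points scatter more widely.

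The 10 genes most like the mean log2 CPM of the 5 members over 18 libraries had Pearson r from 0.800 to 0.828. They included Rftn1 (a lipid raft protein), Zbtb46 (a zinc finger transcription factor) and 7 genes of the mitochondrial genome, mt-Nd1, mt-Nd2, mt-Nd4, mt-Co1, mt-Atp6, mt-Rnr2 and mt-Tp. By Spearman rank, 5 of the 10 stayed in the first 10. None of the tested genes of the red cell, heme, iron and other globin lists was among the 100 most alike of 13591.

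The share of counts from mitochondrially encoded genes moved with the globins. It lay between 11.7% and 18.3% in daily females, against 21.1% to 26.3% in vehicle females, and between 17.7% and 24.5% in daily males, against 16.95% to 32.6% in vehicle males. Over 18 libraries it correlated with the log2 summed globin CPM with r = 0.792 and rho = 0.856 (permutation p = 4.0e-05 each, adjusted over 2 relations 6.0e-05). Mitochondrial genes already stood among the genes most like the members in these same libraries. The permutation p values here are therefore no independent support, and the adjustment does not cover that ranking. The permutations also did not keep libraries within their groups. Without the 2 libraries farthest from the median share, r was 0.755, and with group means removed it was 0.713. The globin counts were also divided by the library total less its mitochondrial reads, without TMM factors. That gave r = 0.805 and rho = 0.841 (permutation p = 6.0e-05 each, adjusted 6.0e-05). For a given globin count and library total, this measure rises with the mitochondrial share by construction. It therefore cannot show whether the relation holds without mitochondrial reads. With library sizes and TMM factors computed without mitochondrial genes and the 5 members, the globins of the mean of both sexes fell by 0.60 to 0.69 and 4 passed (adjusted p from 0.00470 to 0.0116). The part of the mitochondrial share in the globin result was not tested beyond that.

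**Figure D5:**
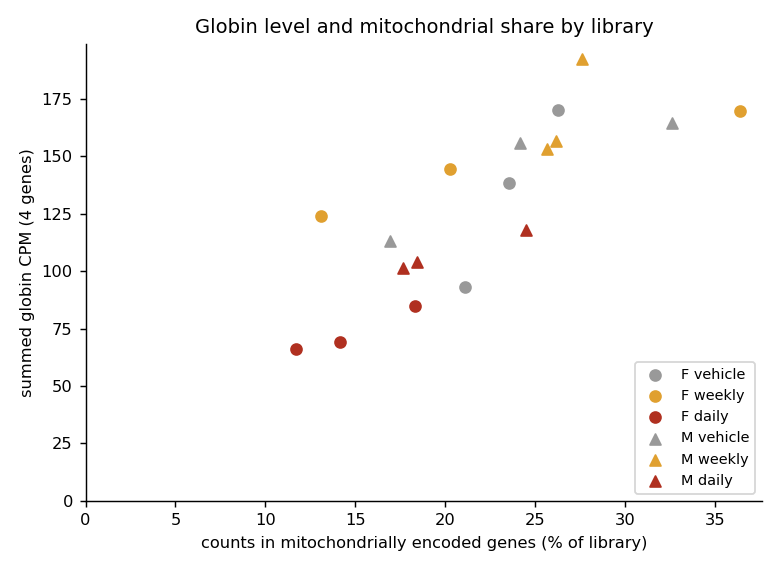
Summed CPM of the 4 globins against the percentage of a library's counts in mitochondrially encoded genes, a point per library. Daily females sit at the lower left, and the 6 libraries with the highest mitochondrial share lie between 153 and 193 CPM.

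Markers of vessels and of other blood cells were set beside the members, as lists written with earlier results in view. In bulk libraries, fewer cells of a type and less RNA per cell cannot be told apart. Of 8 endothelial genes, 0 passed in either sex: in daily females all 8 had a negative log2 fold change (median -0.46), and in daily males 7 had a positive one (median 0.26). Their summed level lay between 744 and 1237 CPM in daily females, against 1177 to 1243 in vehicle females, and between 982 and 1363 in daily males, against 704 to 1311 in vehicle males. Of the other blood cells, 2 of 10 neutrophil genes, 3 of 10 platelet genes, 1 of 8 B cell genes and 1 of 8 T cell genes passed the count filter, and none of these passed the test with daily prednisone in either sex. The B cell gene was Ighm, the heavy chain of IgM, with 180 to 2026 counts per library. It held 21.1 ± 1.23 CPM (SD, n = 3) in vehicle females, 19.5 ± 7.28 in daily females, 84.8 ± 8.30 in vehicle males and 58.2 ± 5.91 in daily males, levels of the order of a single globin gene. Its log2 fold change on daily prednisone was -0.12 in females and -0.54 in males (adjusted p = 0.925 and 0.505). The other 7 B cell genes held 4 to 89 counts each over the 18 libraries. The summed level per library stayed at or under 6.05 CPM for the neutrophil list, 12.4 for the platelet list and 5.46 for the T cell list. The platelet genes Ppbp and Gp9 held 40 and 9 counts over 18 libraries, and the neutrophil genes Ngp and Camp 3 and 6. Of 10 macrophage genes, all tested, 1 was called higher in the mean of both sexes and the median was 0.04. Of 10 adipocyte genes 8 were called higher in the mean of both sexes (median 2.83). Of 10 myofiber genes 4 were called lower there (median -0.37), while of 7 fibroblast and 5 Schwann cell genes 0 were (medians -0.01 and 0.11). These counts for daily prednisone are read beside 7.48% of all tested genes called higher and 7.47% called lower. On weekly prednisone the medians in the mean of both sexes were 3.13 for the adipocyte list and -0.33 for the myofiber list. None of these genes passed there, where the smallest adjusted p of all tested genes was 0.134. The part of any of these in the globin result was not tested.

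The rest of the heme and iron pathway was described from lists. Of 8 heme synthesis genes beside Alas2, 0 passed in daily females or daily males, with medians of -0.01 and -0.10. Alas1, the housekeeping form of the enzyme that Alas2 encodes, stood at 0.27 in the mean of both sexes (adjusted p = 0.233). In that mean the erythroid list had a median of 0.14 over its 20 tested genes, with Sptb higher by 0.37 and Gypc and Mkrn1 lower by 0.30 and 0.40, the 3 that passed. These are read beside 7.48% of all tested genes called higher and 7.47% called lower. Among 11 tested genes of heme breakdown and globin clearance, 2 rose in the mean of both sexes. Flvcr1, a heme exporter, rose by 0.77 ± 0.16 (adjusted p = 0.00537), and Hp, haptoglobin, which binds free hemoglobin, rose by 3.07 ± 0.62 (adjusted p = 0.00544). Hp was not particular to daily prednisone, as weekly prednisone gave 2.83 ± 0.62 in the mean of both sexes (adjusted p = 0.134). Hp was also uneven between libraries, from 6.60 to 146 CPM in weekly females. The summed adipocyte list was uneven there too, from 1162 to 7889 CPM, and its part in the Hp values was not tested. Of 14 iron genes 4 rose in the mean of both sexes on daily prednisone. They were Trf (transferrin) by 1.48, Heph (a ferroxidase) by 1.32, Ncoa4 (the receptor for ferritin turnover) by 0.62 and Ireb2 (an iron regulatory protein) by 0.38. The counts of both lists are read beside the same 7.48% of all tested genes called higher. On weekly prednisone the largest log2 fold change of the iron list in that mean was 1.42 (list median -0.01), with 0 called. Apart from Flvcr1 these list genes, like the marker genes above, were named after their values were seen.

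Flvcr1 was the single gene among the 52 tested of 79 red cell, heme, iron and other globin genes to pass in a comparison of 1 sex with vehicle. In males it had 9.84 ± 1.20 CPM (SD, n = 3) with vehicle and 17.2 ± 4.65 on daily prednisone, a log2 fold change of 0.80 ± 0.23 (SE, adjusted p = 0.0493). In females it had 12.6 ± 3.47 CPM and 21.2 ± 3.79, a log2 fold change of 0.74 ± 0.23 (adjusted p = 0.117). Myoglobin and cytoglobin, the other globins that were tested, had log2 fold changes on daily prednisone of 0.56 ± 0.79 and 0.07 ± 0.27 in females (adjusted p = 0.756 and 0.921) and of 0.02 and -0.02 in males (adjusted p = 0.993 and 0.972). Neither passed.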

How the data were processed

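RNA from quadriceps myofibers was sequenced, and the deposited values are whole-number counts, which the authors obtained from reads aligned to mm10, with no normalization applied. Per the labels, the processing notes name TopHat2 2.1.0, Bowtie2 2.2.6 and HTSeq. Strand setting and annotation release are not given in the sources used here. The study states 3 animals per group.

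Counts were fitted in R 4.3.3 with edgeR 4.0.16 (filterByExpr, minimum count 10, TMM, robust quasi-likelihood over 6 group means). Adjusted p values (Benjamini-Hochberg, 13596 genes) were called under 0.05. Promoter sequences came from RefSeq (GRCm38.p6) and transcripts from GENCODE, and all 5 genes matched. The steps were tested on simulated data. Alternatives included DESeq2 1.42.0, limma-voom (limma 3.58.1) and leaving out libraries. The members and lists were chosen with earlier results of these data known, among them a change of a blood list in daily females. By rule the named genes were the members, red cell, heme and iron list genes called within 1 sex, the other tested globins and the 10 most alike genes; other list genes were named after their values were seen. Same-numbered weekly and daily female libraries deviated together (correlations 0.439 to 0.501, numbers from the titles), the one pair of groups where every pair did. The column headers number these libraries otherwise, and no label names a pairing. Values of a few list genes and of a gene among the most alike are not reported here.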

Additional observations from a re-analysis of the deposited data

How the results depend on the processing

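Of the counts of members called, those for daily prednisone in males, weekly prednisone in females, in males and in the mean of both sexes, both sex differences, and vehicle females against vehicle males stayed at 0 under every alternative run, the libraries left out in turn included (lowest 0, highest 0). For daily prednisone in females the count of 1 became 0 without TMM factors, with scaling that left out mitochondrial genes and the members, with limma-voom, without the filter on low counts, with only the groups compared, with near-identical copies summed and with the replicate block in the fit of all groups. It became 4 with DESeq2 (526 genes called), and leaving out single libraries gave 0 to 0. In the mean of both sexes the count of 4 became 2 without TMM factors, and leaving out single libraries gave 4 to 4. For daily against weekly females the count of 0 became 4 with DESeq2 (512 genes called). It became 2 without the filter (23 genes called) and 2 with a minimum count of 30 (28 genes called). With the replicate block for those 6 libraries in the fit of all 18 it became 4 (522 genes called), but it stayed 0 with the block in a fit of the 6 alone. Both blocks were chosen after seeing the data. Leaving out single libraries gave 0 to 4. For daily against weekly males the count of 0 became 1 with DESeq2 (204 genes called). The block in the fit of all groups changed no other count. The number of the 10 most alike genes kept was 5 by Spearman rank.

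Among log2 fold changes near 0, some turned sign. Without TMM factors, which moved the median of all genes by 0.21 in daily females and 0.29 in daily males, vehicle females against vehicle males turned to 0.039 for Hbb-bs and 0.053 for Hbb-bt. With single libraries left out, weekly females ranged from -0.20 to 0.28 for Hbb-bs, from -0.10 to 0.16 for Hbb-bt, from -0.036 to 0.44 for Hba-a2 and from -0.37 to 0.027 for Alas2. The sex difference of the daily response ranged from -0.62 to 0.054 for Alas2, and that of the weekly response from -0.13 to 0.22 for Hba-a1, from -0.22 to 0.26 for Hba-a2 and from -0.42 to 0.055 for Hbb-bs. Vehicle females against vehicle males ranged from -0.43 to 0.045 for Alas2, from -0.32 to 0.027 for Hba-a1, from -0.36 to 0.11 for Hba-a2, from -0.33 to 0.15 for Hbb-bs and from -0.20 to 0.096 for Hbb-bt. The causes were not tested. With 26 to 97 counts per library, Alas2 had the widest errors of the 5 genes.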
